A study of Mus musculus with 8 samples.

Results

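The SOCS family holds 8 mouse genes, Socs1 to Socs7 and Cish, whose proteins restrain signaling by cytokine receptors. They were taken by gene symbol from the deposited expression table of tumor-associated macrophages (TAMs), where each is 1 of 53247 rows, and all 8 were among the 13850 rows tested. The question was how their transcripts differed between TAMs of miR-21 null and WT mice. Socs1 rose 4.39-fold in miR-21 null TAMs on the fitted scale of log2(value + 1), and 5.06-fold as a ratio of mean values. Socs3 rose by a smaller amount, and Socs2, Socs4, Socs5 and Socs7 did not pass the test. At an adjusted p of at most 0.05, Cish was higher and Socs6 lower, each under 10 of 17 alternative settings. Socs6 was not called after either rescaling of the samples, by the median of ratios or by quantile normalization. At this limit Socs5 was called higher after either rescaling, and Socs4 after the median of ratios.

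The study measured mRNA in TAMs from tumors of Lewis lung carcinoma (LLC), a mouse lung cancer line that grows in C57/BL6 mice. LLC cells were placed under the skin of WT mice or of miR-21 null mice at 8 weeks of age, and 14 days later TAMs were sorted as CD45+, CD11b+, MHCII+ and F4/80+ cells. Both groups had the C57/BL6 strain, an age given as 10 weeks and the same tumor line, and each had 4 biological replicates. The miR-21 null mice carried a germline deletion of the Mir21a gene, so that every host cell type, and not TAMs alone, lacked the microRNA. According to the methods of the study, both lines were purchased from 1 supplier, and the miR-21 null line was then crossed to C57/BL6 for several generations. The title of miR-21 null replicate 1 joins a pair of sample numbers, and it was counted as 1 sample. Whether each sample came from 1 mouse or from a pool is not given, so the p-values measure the spread between these samples.

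Cytokines such as interferons, interleukins and growth hormone bind receptors that carry Janus kinases (JAKs), which phosphorylate STAT transcription factors. STATs then switch on genes that include some of the SOCS genes, and this closes a negative feedback loop. Each SOCS protein has an SH2 domain that binds phosphorylated tyrosine and a SOCS box that recruits an elongin and cullin ubiquitin ligase. SOCS1 and SOCS3 also have a short kinase inhibitory region that blocks JAKs directly. In macrophages SOCS1 is known chiefly as a brake on interferon signaling, and SOCS3 as a brake on signaling through the IL-6 receptor chain gp130.

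Values are CPM, counts per 1e6 reads as given by the authors. The depth, read from the steps between low values, was 20.2 to 33.4 in units of 1e6 reads per sample, so that 1 read was worth 0.030 to 0.0495 CPM. Fold changes are on the scale of log2(CPM + 1), miR-21 null over WT, from limma, with Benjamini-Hochberg adjusted p over all 13850 rows. A strict call needed more than a 1.5-fold change together with an adjusted p of at most 0.005, and a loose call needed an adjusted p of at most 0.05 whatever the fold. Over all rows, 7.12% passed the strict rule, 2.89% in the higher direction. The loose rule called 9.49% of rows higher and 26.5% lower. The 4 miR-21 null values all lay above the 4 WT values for 9.44% of rows, and all below them for 25.7%. The median log2 fold change of all rows was -0.10, and 33.2% of rows were above 0, so small decreases were common in this table. As a check of the labels, Mir21a itself was listed at 0.0001 CPM, the lowest value, in all 8 samples and checks nothing, whereas Vmp1, the gene whose end overlaps Mir21a, rose from 124 ± 9.08 to 397 ± 23.4 CPM (SD, n = 4 each). The summed CPM of 10 macrophage markers was 12190 to 13710 in WT and 13010 to 15510 in miR-21 null samples. Lyz2 alone was at 4640 ± 894 and 6116 ± 1291 CPM (SD, n = 4 each). The markers did not move together, with 5 above 0 and 5 below. Fcgr1 was strictly higher (0.75), and Adgre1 (-0.38) and Csf1r (-0.48) were loosely lower without overlap.

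Socs1 exhibited the largest change of the family. Its level was 4.41, 4.12, 6.38 and 5.82 CPM in WT replicates 1 to 4, and 33.4, 26.98, 21.1 and 23.4 CPM in miR-21 null replicates 1 to 4. The groups did not overlap, and the lowest miR-21 null sample lay far above the highest WT sample. The mean rose from 5.18 ± 1.09 to 26.2 ± 5.36 CPM (SD, n = 4 each), which gave a log2 fold change of 2.14 (SE 0.157, 95% interval 1.79 to 2.48) with an adjusted p of 1.66e-05 in limma. Of 13850 rows, 28 had a larger log2 fold change. These levels rested on 119 to 900 reads per sample, estimated from the step of the low values. Leaving out each sample in turn gave log2 fold changes between 2.02 and 2.23, all within the strict rule.

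The Socs1 row spans chr16:10783808-10785536 of GRCm38 on the minus strand, a compact protein-coding gene. The row ends before the distal 3′ UTR of the annotated transcript, since 1340 of its 2908 bases lie within it, and reads from the remainder could not enter the value. The promoter window of Socs1, 250 bases before to 50 bases after the start site, is printed because Socs1 was the member that rose most, and it was read from RefSeq on GRCm38.p6 at chr16:10785487-10785786, minus strand. Capitals mark matches to GAAANNGAAA, the letters of an IRF-type element, which interferon regulatory factors recognize.
Socs1 promoter: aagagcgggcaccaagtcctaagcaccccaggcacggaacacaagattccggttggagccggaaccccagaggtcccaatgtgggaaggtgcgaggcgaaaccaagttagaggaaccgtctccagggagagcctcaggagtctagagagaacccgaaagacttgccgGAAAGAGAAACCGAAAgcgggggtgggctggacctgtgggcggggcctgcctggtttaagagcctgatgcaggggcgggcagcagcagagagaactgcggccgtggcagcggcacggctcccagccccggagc
The capitals hold an overlapping pair of matches, GAAAGAGAAA from base -83 to -74 and GAAACCGAAA from -77 to -68, counted from the start site. On both strands, 3.44% of 32851 RefSeq promoter windows of this length held the motif, and 3.36% of the 12045 windows of tested genes. The match is a description of letters and not a measured binding site.

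Socs3 was the most abundant member and rose by less. Its level was 153.6, 162.2, 169.4 and 192.6 CPM in the WT samples and 247.1, 208.3, 239.2 and 223.8 CPM in the miR-21 null samples. All miR-21 null values lay above all WT values, but WT replicate 4 came close to miR-21 null replicate 2. The mean rose from 169 ± 16.7 to 230 ± 17.2 CPM (SD, n = 4 each), which gave a log2 fold change of 0.44 (SE 0.0795, 95% interval 0.26 to 0.62) with an adjusted p of 0.00245 in limma. This passed the loose rule, and the fold of 1.35 stayed under the limit of the strict rule. With 3423 to 6947 reads per sample, counting error was small beside the spread between samples.

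The Socs3 row lies at chr11:117966079-117970047 of GRCm38, minus strand, on the chromosome that also carries Mir21a. Its RefSeq promoter window, chr11:117969317-117969616 of GRCm38.p6, minus strand, is shown for comparison with that of Socs1. Capitals mark the match to TTCNNNGAA, the letters of a STAT-type element.
Socs3 promoter: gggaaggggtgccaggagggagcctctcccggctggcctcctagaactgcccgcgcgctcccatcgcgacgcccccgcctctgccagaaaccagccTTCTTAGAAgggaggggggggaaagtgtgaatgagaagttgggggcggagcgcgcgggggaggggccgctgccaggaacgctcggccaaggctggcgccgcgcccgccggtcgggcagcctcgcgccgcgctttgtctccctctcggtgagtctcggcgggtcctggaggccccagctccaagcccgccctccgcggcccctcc
The match, TTCTTAGAA, runs from base -154 to -146. In the same windows, 8.30% of all promoters and 7.02% of those of tested genes held these letters. Socs3 held no GAAANNGAAA, and Socs1 no TTCNNNGAA. A form with 1 more base in the gap, TTCNNNNGAA, was found in 6.95% of all windows and in none of the windows of Socs1, Socs3, Socs4 and Cish.

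**Figure D1:**
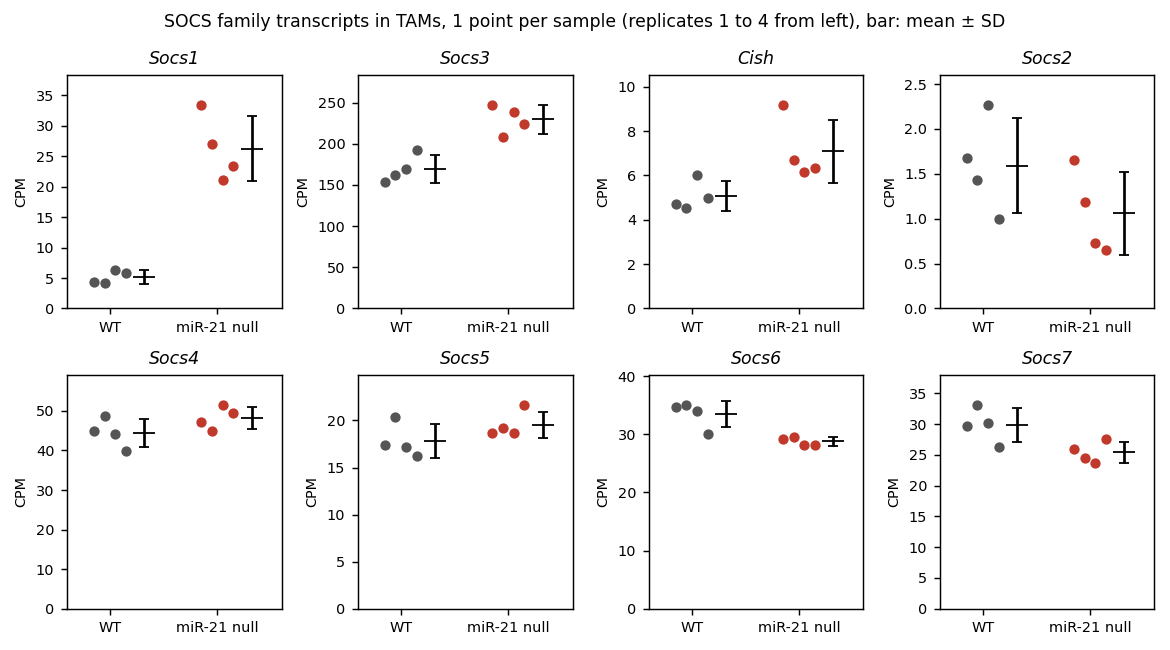
CPM of the 8 SOCS family genes in each sample, with WT samples in grey, miR-21 null samples in red and the mean ± SD (n = 4 each) beside each group, on linear axes that start at 0. Socs1 separates the genotypes with a wide gap, Socs3, Cish and Socs6 separate them narrowly, and the other 4 overlap.

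Cish and Socs2 encode proteins linked to STAT5. CIS, the product of Cish, binds the STAT5 docking sites of receptors such as that for erythropoietin, and SOCS2 restrains the growth hormone receptor. Cish was at 4.72, 4.55, 6.03 and 4.96 CPM in WT and at 9.17, 6.70, 6.13 and 6.32 CPM in miR-21 null samples. The groups did not overlap, but WT replicate 3 lay just under miR-21 null replicate 3, and miR-21 null replicate 1 stood above the rest. The mean rose from 5.07 ± 0.668 to 7.08 ± 1.41 CPM (SD, n = 4 each), with a log2 fold change of 0.40 (SE 0.129, 95% interval 0.12 to 0.69) and an adjusted p of 0.0341 in limma. This loose call was lost in limma without WT replicate 1, 2 or 4 (adjusted p of 0.0734, 0.0887 and 0.0590) and without miR-21 null replicate 1 or 2 (adjusted p of 0.0657 and 0.0593). Blocking by replicate number (adjusted p of 0.0569 in limma) and using no filter on low values (0.0911) also ended it. Without miR-21 null replicate 1 the log2 fold change was 0.29.

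Socs2 was the scarcest member, at 1.67, 1.43, 2.27 and 0.996 CPM in WT and 1.66, 1.19, 0.730 and 0.655 CPM in miR-21 null samples. The groups overlapped. The means of 1.59 ± 0.530 and 1.06 ± 0.465 CPM (SD, n = 4 each) gave a log2 fold change of -0.34 with a 95% interval from -0.76 to 0.086 and an adjusted p of 0.192 in limma. With 19 to 50 reads per sample, its precision was the lowest of the family. The row spans chr10:95385362-95417180 of GRCm38, minus strand.

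The Cish row spans chr9:107296026-107302784 of GRCm38, plus strand. Rows of the opposite strand, the antisense gene Gm17041 and the pseudogene Gm17040, overlap it and were at no more than 0.694 and 0.0935 CPM. No other member overlapped another row. The RefSeq promoter window of Cish, chr9:107296409-107296708 of GRCm38.p6, plus strand, is shown because it held a pair of STAT-type matches, in capitals.
Cish promoter: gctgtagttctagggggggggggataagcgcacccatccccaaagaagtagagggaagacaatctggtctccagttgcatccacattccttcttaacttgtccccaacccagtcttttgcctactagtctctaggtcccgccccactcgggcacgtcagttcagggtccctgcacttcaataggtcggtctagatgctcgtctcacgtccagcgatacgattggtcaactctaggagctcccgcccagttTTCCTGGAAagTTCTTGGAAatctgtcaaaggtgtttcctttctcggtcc
The matches are TTCCTGGAA from base 1 to 9 and TTCTTGGAA from base 12 to 20, both just after the start site. The set of RefSeq promoter windows used here covered 4 of the 8 members, and the window of Socs4 held none of the 3 motifs. Socs2, Socs5, Socs6 and Socs7 had no window in that set.

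**Figure D2:**
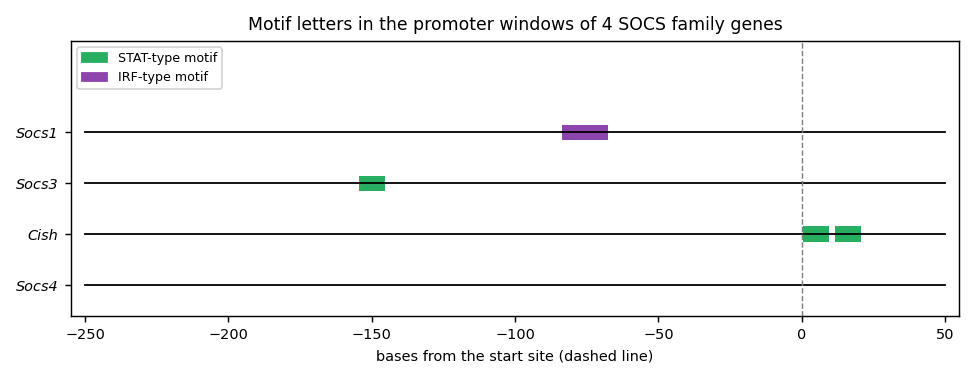
Position of motif letters in the 4 promoter windows, in bases from the start site at the dashed line, with TTCNNNGAA in green and GAAANNGAAA in purple. Socs1 has the overlapping IRF-type pair between -83 and -68, Socs3 and Cish have STAT-type matches, and Socs4 has none.

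Socs4 and Socs5 form a pair with long N-terminal regions and are known for acting on the EGF receptor. Socs4 was at 44.8, 48.8, 44.1 and 39.9 CPM in WT and 47.3, 45, 51.4 and 49.4 CPM in miR-21 null samples. Its log2 fold change was 0.12 (95% interval -0.036 to 0.27, adjusted p of 0.207 in limma). Socs5 was at 17.4, 20.4, 17.2 and 16.2 CPM in WT and 18.7, 19.2, 18.6 and 21.6 CPM in miR-21 null samples. Its log2 fold change was 0.13 (95% interval -0.054 to 0.31, adjusted p of 0.245). The groups overlapped for both genes, and neither interval reached above 0.31. When samples were rescaled by the median of ratios, both passed the loose rule, with log2 fold changes of 0.22 and 0.23 and adjusted p of 0.0291 and 0.0470 in limma. After quantile normalization Socs5 passed it (adjusted p of 0.0409 in limma) and Socs4 did not (0.0553).

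Socs4, Socs5 and Socs7 held the longer matches to the seed of the deleted microRNA in their 3′ UTRs. A microRNA binds mostly through its seed, bases 2 to 8, and a match in a 3′ UTR is a candidate target site. The mature sequence is from RefSeq, chr11:86584120-86584141 of GRCm38.p6, minus strand, with the seed in capitals, and the windows are from GENCODE M21 transcripts, with the matched letters in capitals.
miR-21a-5p: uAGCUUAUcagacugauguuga
Socs5, 8 matched letters: acctgtcagaATAAGCTAaatcta
Socs4, 7 letters with the full seed: cttgtctgtaATAAGCTttcttga
Socs4, 7 letters ending in A: taaatcaaatcTAAGCTAtcagac
Socs7, 7 letters ending in A: gtatgttattgTAAGCTAgtgaca
The Socs5 match starts at base 1514 of a 3′ UTR of 2595 bases, those of Socs4 at bases 4720 and 4914 of 5182, and that of Socs7 at base 2821 of 5184. Socs2 had a 6-letter match alone, and Socs1, Socs3, Socs6 and Cish had none in 3′ UTRs of 1993, 1474, 4019 and 2248 bases. Of 11449 tested genes with a 3′ UTR, 2.24% held the 8-letter match, 7.75% the 7-letter match to the full seed, 7.65% the 7-letter match ending in A, and 26.6% the 6-letter match. These shares were not matched for length, and longer 3′ UTRs, such as those of Socs4 and Socs7, have more places for a match. The Socs4 row lies at chr14:47276931-47296102, plus strand, and the Socs5 row at chr17:87107679-87137583, plus strand, both on GRCm38.

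Socs7, which binds signaling adaptors such as insulin receptor substrates, was at 29.7, 33.0, 30.2 and 26.2 CPM in WT and 26.0, 24.5, 23.7 and 27.5 CPM in miR-21 null samples. The groups overlapped through WT replicate 4 and miR-21 null replicate 4. The means were 29.8 ± 2.79 and 25.4 ± 1.70 CPM (SD, n = 4 each), and the log2 fold change of -0.22 (95% interval -0.39 to -0.045) had an adjusted p of 0.0516 in limma. Without either of these samples it passed the loose rule, with an adjusted p of 0.0164 and 0.0456. The row lies at chr11:97362551-97398542 of GRCm38, plus strand.

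**Figure D3:**
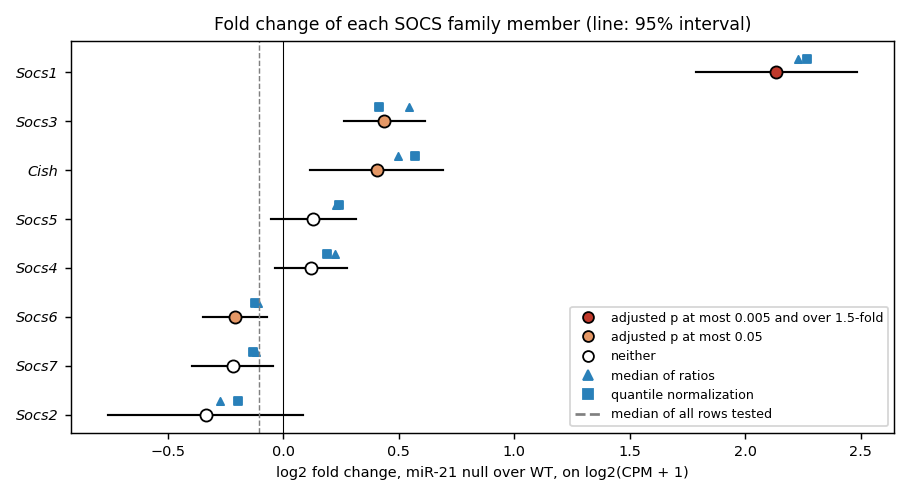
Log2 fold change of each member, miR-21 null over WT, with its 95% interval (n = 4 each), filled red for a strict call, orange for a loose call and white for neither, beside the values after rescaling by the median of ratios (triangles) and quantile normalization (squares). Socs1 at 2.14 stands apart. The dashed line is the median of all rows before rescaling, -0.10, and the medians after rescaling, -0.0098 and -0.0076, lie close to 0.

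Socs6, a relative of Socs7 known to bind the receptor kinases KIT and FLT3, was at 34.8, 34.97, 33.9 and 30.1 CPM in WT and 29.1, 29.6, 28.2 and 28.1 CPM in miR-21 null samples. The groups did not overlap, with WT replicate 4 just above the miR-21 null samples. The mean fell from 33.5 ± 2.27 to 28.8 ± 0.728 CPM (SD, n = 4 each), which gave a log2 fold change of -0.21 (SE 0.0616, 95% interval -0.35 to -0.072) with an adjusted p of 0.0244 in limma. Relative to the median of all rows the difference was -0.11, and Socs6 no longer passed the loose rule when samples were rescaled by the median of ratios (adjusted p of 0.198) and after quantile normalization (adjusted p of 0.144). It was also lost without WT replicate 1, 2 or 3 (adjusted p of 0.0593, 0.0721 and 0.0552) or miR-21 null replicate 3 or 4 (adjusted p of 0.0603 and 0.0617).

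Counted over the family, 5 members had a positive and 3 a negative log2 fold change, with a median of 0.12 against -0.10 for all rows tested. The strict rule called 1 member higher, Socs1, and none lower. The loose rule called 3 higher, Socs1, Socs3 and Cish, and 1 lower, Socs6, beside 9.49% and 26.5% of all rows. After rescaling by the median of ratios the median of the family was 0.23, and the loose rule called 5 members higher and 0 lower. With that rescaling the loose rule called 2070 of all 13850 rows higher and 2092 lower. Relative to the median of all rows, the differences were 2.24 for Socs1, 0.54 for Socs3, 0.51 for Cish, 0.23 for Socs5, 0.22 for Socs4, -0.11 for Socs6, -0.12 for Socs7 and -0.23 for Socs2.

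The make-up of the family shifted towards Socs1. The summed CPM of the 8 genes was 307 ± 11 in WT and 386 ± 21.1 in miR-21 null samples (SD, n = 4 each). Without Socs1 and Socs3 the sum was 132 ± 10.2 and 130 ± 3.30 CPM, so the difference in the total lay in these 2 genes. Socs1 held 1.52%, 1.33%, 2.06% and 1.84% of the total in WT and 8.10%, 7.47%, 5.42% and 6.16% in miR-21 null samples, a difference of the means of 5.10 percentage points. Socs3 held 55.2% ± 3.88 in WT and 59.5% ± 1.65 in miR-21 null samples, and these shares overlapped, since WT replicate 4 held 60.8%. The shares of Socs6 (10.9% ± 1.03 to 7.47% ± 0.495) and Socs7 (9.73% ± 1.03 to 6.60% ± 0.511) did not overlap, although the CPM of Socs7 did. A share also falls when other members rise. That of Socs4 went from 14.5% ± 1.43 to 12.5% ± 0.775 while its mean went from 44.4 to 48.3 CPM. A share of CPM also reflects transcript length, and no test was run on shares. The ratio of Socs3 to Socs1 CPM was 34.8, 39.4, 26.5 and 33.1 in WT and 7.40, 7.72, 11.4 and 9.55 in miR-21 null samples.

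**Figure D4:**
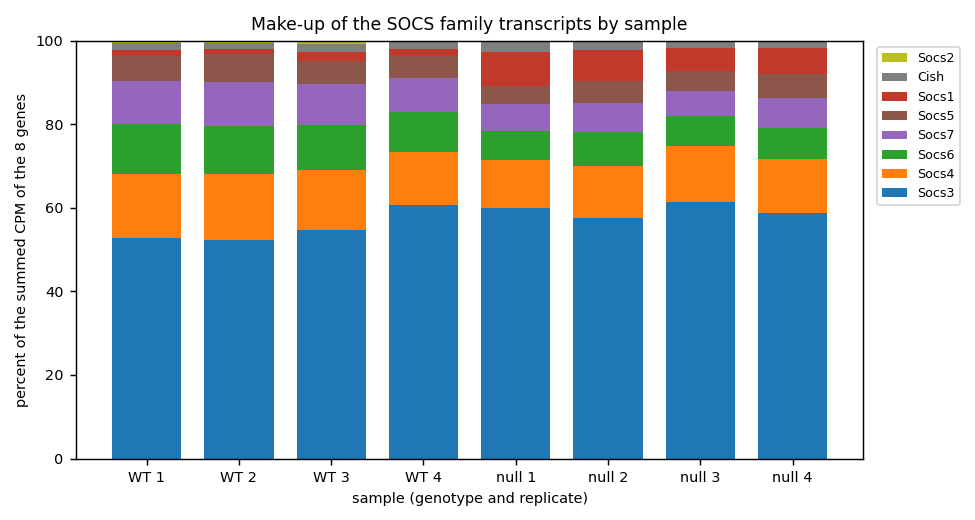
Percent of the summed CPM of the 8 genes held by each gene, as stacked bars that reach 100 in each of the 8 samples. The red Socs1 band widens from at most 2.06% in WT to at least 5.42% in miR-21 null samples, and Socs3 holds the largest share throughout.

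Per kilobase of the longest protein-coding transcript within each row, Socs3 was highest in both genotypes, at 66.4 ± 6.55 CPM per kb in WT and 90.0 ± 6.74 in miR-21 null samples (SD, n = 4 each). In WT, Socs4 (6.46 ± 0.531), Socs6 (5.54 ± 0.376), Socs7 (4.25 ± 0.397), Socs5 (4.05 ± 0.412) and Socs1 (3.87 ± 0.813) followed. The values of Socs7, Socs5 and Socs1 did not differ beyond their spread. Cish (1.78 ± 0.234) and Socs2 (0.716 ± 0.238) were lowest, and the samples of each of these and of Socs4 and Socs6 did not overlap those of the neighbors in this order. In miR-21 null samples Socs1 reached 19.6 ± 4.00 CPM per kb and moved from rank 6 to rank 2, and the order of the others changed only between Socs5 (4.45 ± 0.319) and Socs7 (3.62 ± 0.243). Socs6 (4.76 ± 0.121) and Socs5 overlapped there. With all annotated exons as the length, Socs6 was at 2.95, Socs5 at 2.89 and Cish at 0.789 CPM per kb in WT. Socs1 stayed at 3.87 in WT and then lay above Socs6 and Socs5. The order of the middle members, and with it the WT rank of Socs1, therefore depends on the length used.

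Within a genotype, some members varied together. Socs1, Cish and Socs2 were all highest in replicate 3 among WT samples and in replicate 1 among miR-21 null samples. After removal of the genotype means, Pearson's r over the 8 samples was 0.905 between Socs1 and Cish, 0.80 between Socs2 and Cish and 0.874 between Socs5 and Socs7, and -0.777 between Socs3 and Socs6. These are descriptions over 8 libraries that came from the same kind of sort and differed in depth.

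The genes most like Socs1 over the 8 samples, among 8642 tested genes with a mean of at least 10 CPM, were Batf2, Lrrc8c and Sod2. Pearson's r of log2(CPM + 1) was 0.998, 0.997 and 0.997, and 0.959, 0.939 and 0.926 after removal of the genotype means. Batf2, an interferon-induced transcription factor, was at 9.19, 9.38, 13.4 and 12.2 CPM in WT and 48.9, 44.7, 35.8 and 41.3 CPM in miR-21 null samples, and it had the same highest sample as Socs1 in each genotype. Lrrc8c, a subunit of volume-regulated anion channels, rose from 46.3 ± 3.75 to 90.9 ± 4.20 CPM, and Sod2, the mitochondrial superoxide dismutase, from 60.3 ± 4.31 to 130 ± 12.7 CPM (SD, n = 4 each). In all, 222 genes had an r over 0.95, a value that any large difference between genotypes can give.

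Other genes of JAK-STAT signaling were described in 11 lists by their counts and medians, since no set test was run. For comparison, 33.2% of all rows tested were above 0. The median of all rows was -0.10, or -0.0098 after rescaling by the median of ratios. Of the 4 JAK kinases, Jak2 was called loosely higher (69.7 ± 3.20 to 97.1 ± 6.09 CPM, log2 fold change 0.47, adjusted p of 0.000348 in limma). Tyk2, the lowest, had -0.05, and 2 of the 4 were above 0, or all 4 after rescaling by the median of ratios. Among the STAT genes, Stat2 and Stat3 were loosely higher (0.32 and 0.36), and Stat4, used by the IL-12 receptor, was loosely lower (-0.46) with overlapping groups. The Stat4 call was lost after the median of ratios and quantile normalization (adjusted p of 0.0782 and 0.0817 in limma) and without WT replicate 2 or miR-21 null replicate 2 or 3 (0.0620, 0.0510 and 0.0637).

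Of 27 receptor genes whose signaling SOCS proteins are known to limit, 24 were tested, with 9 above 0, 15 below 0 and a median of -0.18. Among all rows 33.2% were above 0, so most rows were below 0 as well. The strict rule called 4 receptor genes higher and 4 lower, beside 400 and 586 of all 13850 rows. Higher were Il12rb1 of the IL-12 receptor (15.6 ± 3.78 to 59.2 ± 7.06 CPM), Il21r of the IL-21 receptor (28.7 ± 3.79 to 73.6 ± 6.75), Il4ra of the IL-4 receptor (473 ± 74.5 to 792 ± 71.4) and Il2rg, the common gamma chain (188 ± 5.82 to 311 ± 14.7). Lower were Lifr, the LIF receptor (73.9 ± 19.0 to 19.7 ± 1.33 CPM), Insr, the insulin receptor (54.6 ± 6.15 to 35.3 ± 3.06), Epor, the erythropoietin receptor (2.46 ± 1.12 to 0.143 ± 0.0780), and Ifngr1, the ligand-binding chain of the interferon-gamma receptor. The miR-21 null values of Epor lay near the 0.0899 to 0.148 CPM that 3 reads were worth. Epor passed the filter on low values only through the WT group, and its log2 fold change ran from -0.29 with a pseudocount of 10, where the strict call was lost, to -3.36 with 0.1. With no filter its adjusted p was 0.00345 in limma. Insr fell under the fold limit of the strict rule after the median of ratios (-0.51), after quantile normalization (-0.53), without WT replicate 2 or 3 or miR-21 null replicate 2 (-0.57, -0.57 and -0.56) and with a pseudocount of 10 (-0.51). With no filter on low values Insr had an adjusted p of 0.00528. It remained a loose call in each. With no filter Il4ra also lost its strict call (adjusted p of 0.00868). Ifngr1 was at 247, 294, 249 and 233 CPM in WT and 164, 138, 155 and 160 CPM in miR-21 null samples, a log2 fold change of -0.72 (SE 0.0810, adjusted p of 0.000195 in limma). The other interferon receptor chains, named after their values were seen, were loosely lower as well, with -0.46 for Ifngr2, -0.32 for Ifnar1 and -0.45 for Ifnar2. The Ifnar1 call was lost after the median of ratios (adjusted p of 0.126 in limma) and without WT replicate 1, 2 or 3 or miR-21 null replicate 3 or 4 (0.0619 to 0.0735). Il6st, which encodes gp130, the main docking site of SOCS3, was loosely higher at 0.30, a call lost without WT replicate 1 or miR-21 null replicate 1, 2 or 3 (adjusted p of 0.0522 to 0.0800).

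Of 20 ligand genes of these receptors, 7 passed the filter on low values. Il27, a cytokine of macrophages and dendritic cells, was strictly higher (4.33 ± 1.33 to 9.48 ± 1.16 CPM, log2 fold change 1.00), and Igf1, a growth factor, strictly lower (42.8 ± 19.5 to 5.8 ± 2.08 CPM, -2.58). The strict call of Il27 was lost with a pseudocount of 10 (0.45), with no filter on low values (adjusted p of 0.0086 in limma) and without miR-21 null replicate 3 (0.00522), and that of Igf1 with no filter (0.0065). Ifng, which encodes interferon-gamma, was at 0.866, 0.208, 0.484 and 0.298 CPM in WT and 2.45, 2.00, 0.995 and 3.58 CPM in miR-21 null samples. The groups did not overlap. Ifng passed the filter on low values only through the miR-21 null group, and with no filter its log2 fold change of 1.11 had an adjusted p of 0.0276 in limma, a loose call. The value ran from 0.22 to 2.07 with pseudocounts of 10 and 0.1.

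Of the 8 elongin, cullin and related genes that serve the SOCS box, 6 were above 0, or all 8 after rescaling by the median of ratios, and none passed the strict rule. The highest was Cul2 (0.26, loosely higher) and the lowest Nedd8 (-0.06). Of 13 other inhibitors of the pathway, 2 were above 0, or 6 after that rescaling. Ptpn2, a phosphatase of JAKs and STATs, was loosely higher (28.4 ± 1.22 to 41.3 ± 1.30 CPM, 0.53, adjusted p of 0.000118 in limma), and Sh2b3, the lowest, was loosely lower (-0.36). Of 10 tested substrates and adaptors of SOCS proteins, 1 was above 0, or 5 after that rescaling, and none passed the strict rule. Ptk2b was highest at 0.34 and Flt3 lowest at -0.50. Among all rows 33.2% were above 0 before that rescaling, and their median moved from -0.10 to -0.0098 with it.

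Of 12 genes driven by interferon-gamma, 11 were strictly higher, and the median log2 fold change was 1.33 against -0.10 for all rows. Of these, Ido1 (0.232 ± 0.278 to 1.59 ± 0.435 CPM), passed the filter on low values only through the miR-21 null group, and with a filter at a mean of 5 per 1e6, which left it out, 10 were strictly higher. They included the guanylate-binding proteins Gbp4 (70.3 ± 20.95 to 488 ± 29.7 CPM, 2.83) and Gbp2 (150 ± 34.3 to 913 ± 104, 2.62), the chemokines Cxcl10 (2.33) and Cxcl9 (2.17) and the transcription factor Irf1 (121 ± 17.9 to 376 ± 51.7 CPM, 1.63). They also included the checkpoint ligand Cd274 (1.58), the tryptophan-degrading enzyme Ido1 (1.08), the MHC class I regulator Nlrc5 (0.96) and the antigen-processing genes Tap1 (0.92), Psmb9 (0.79) and Psmb8 (0.66). Ciita, the regulator of MHC class II, did not pass the test (-0.14, adjusted p of 0.659 in limma). The strict call of Ido1 was lost with a pseudocount of 10 (0.18), with no filter on low values (adjusted p of 0.00786) and without WT replicate 2 or miR-21 null replicate 2 (0.00528 and 0.00551). That of Psmb9 was lost with no filter (0.00814), which left 9 of the 12 strictly higher.

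Of 11 tested STAT3-driven genes, 2 were strictly higher, Il1rn (1.48), which encodes the IL-1 receptor antagonist, and Il4ra (0.75), and Fos was lowest (-0.52). The median was -0.06, and with no filter 1 was strictly higher. Of 8 STAT5-driven genes, Cdkn1a, a cell cycle inhibitor, was strictly higher (0.74), and Il2ra was lowest (-0.61), with a median of -0.11. The strict calls of this list were 0 with no filter on low values, where the adjusted p of Cdkn1a was 0.00701 in limma, and 2 after the median of ratios. Among STAT6-driven genes, Pdcd1lg2 (2.86), which encodes a PD-1 ligand, and Il4ra were strictly higher, and Klf4 was lowest (-1.13). Il4ra stands in 3 of the lists.

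**Figure D5:**
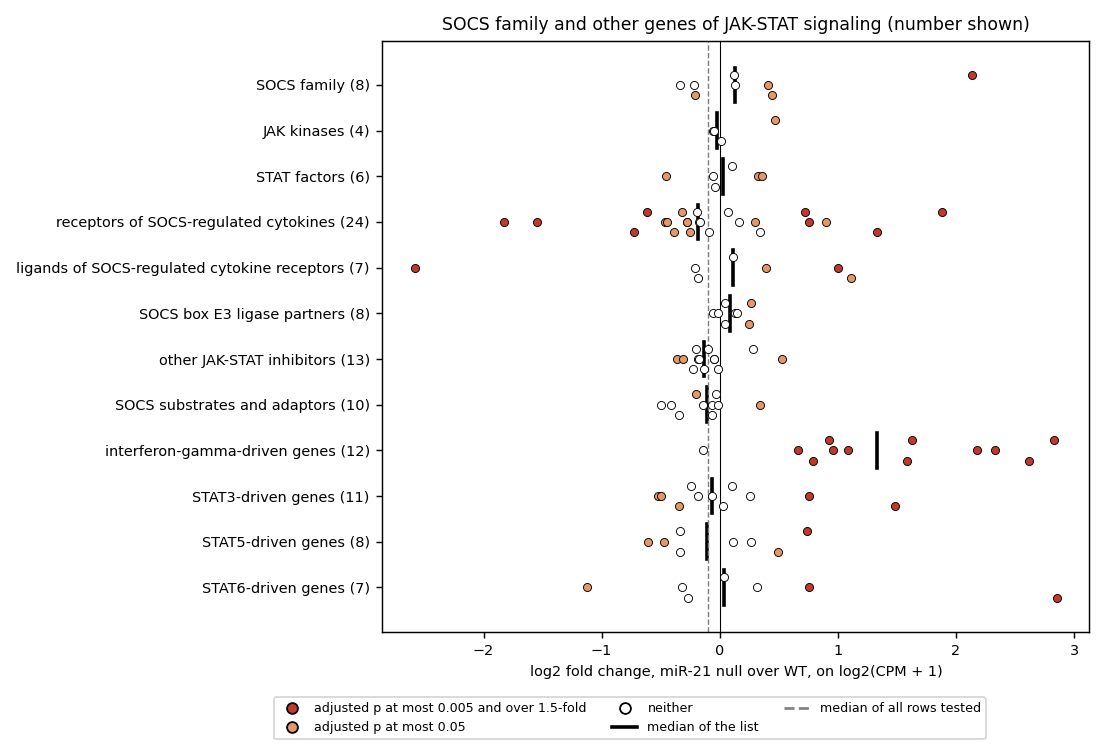
Log2 fold change of the tested genes reported in the SOCS family and 11 other lists, miR-21 null over WT (n = 4 each), filled red for strict calls, orange for loose calls and white for neither, with list medians as black bars and the median of all rows dashed. The genes driven by interferon-gamma lie almost wholly to the right with a median of 1.33, and the other medians lie between -0.18 and 0.12.

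Markers of other cell types were also measured in these samples. In bulk samples, fewer cells of a type and less RNA per cell cannot be told apart. The summed CPM of 10 T cell markers was 24.6 to 45.5 in WT and 11.8 to 48.6 in miR-21 null samples, and that of 7 NK cell markers 3.59 to 11.3 and 7.18 to 19.0, with both sums highest in miR-21 null replicate 1, which was also highest in Socs1 and Cish. Of the NK markers, Ncr1, Klrb1c, Eomes, Klra8 and Klre1 were under 1 CPM in all 8 samples. Prf1, which encodes perforin, was loosely higher (3.85 ± 2.28 to 9.74 ± 4.44 CPM, log2 fold change 1.16, adjusted p of 0.0261 in limma) with overlapping groups, a call lost without WT replicate 1 or 2 or miR-21 null replicate 1 or 4. Gzma, at 0.944 ± 1.052 and 0.951 ± 0.655 CPM, did not pass the test. Of the 10 T cell markers, 7 had a log2 fold change above 0 and 3 below. Cd8a was loosely higher (1.92 ± 0.413 to 6.71 ± 3.66 CPM), Cd4 strictly lower (16.6 ± 10.02 to 2.19 ± 1.148) and Cd5 loosely lower (1.79 ± 0.394 to 0.965 ± 0.488), as mean ± SD with n = 4 each, and the other 7 did not pass either rule. The strict call of Cd4 was lost without WT replicate 1 or 3 or miR-21 null replicate 3 or 4, and the loose call of Cd5 without WT replicate 1 or 3, without miR-21 null replicate 2, 3 or 4 and after the median of ratios or quantile normalization. Sums of 8 dendritic cell markers were 17.0 to 29.2 and 21.3 to 46.6 CPM. Of these, Clec9a was loosely higher without overlap (2.54 ± 0.195 to 8.18 ± 4.29 CPM, adjusted p of 0.00532 in limma), and Cd209a loosely lower with overlap (2.62 ± 2.15 to 0.396 ± 0.511 CPM, adjusted p of 0.0187), a call that rests on a gene past the filter only through WT and that was lost without miR-21 null replicate 3 (0.0506). Sums of 6 endothelial markers were 153 to 304 and 203 to 292 CPM, with Tek and Cldn5 under 1 CPM. Sums were lower without overlap in miR-21 null samples for 6 B cell markers (57.6 to 98.1 against 15.4 to 24.7 CPM), 8 neutrophil markers (769 to 1168 against 574 to 747), 7 fibroblast markers (67.0 to 143 against 11.6 to 45.9) and 6 epithelial markers (18.8 to 24.8 against 12.7 to 17.9). After rescaling by the median of ratios the neutrophil sums (725 to 1144 against 588 to 772) and epithelial sums (17.9 to 23.6 against 12.99 to 18.99) overlapped. The loosely lower neutrophil markers went from 5 to 1 of 6 tested, and Ly6g, not called, was above 0 before rescaling (0.31). The macrophage sums (11930 to 13180 against 13330 to 16420) no longer overlapped, although 6 macrophage markers were above 0 and 4 below. Mpo, Elane, Epcam and Krt19 were under 1 CPM throughout, and Cldn3 was listed at the lowest value in all samples. The part of these cell types in the SOCS family values was not tested. Without miR-21 null replicate 1, the log2 fold change of Socs1 was 2.02 with an adjusted p of 7.04e-05 in limma.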

How the data were processed

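mRNA libraries (Kapa kit) of sorted TAMs were sequenced for 4 WT and 4 miR-21 null samples. The submitters' processing notes name STAR, Partek 7.0 and mm10, and counting rule and strand are not given in the sources used here. The authors deposited 1 table of CPM values, each raised by 0.0001, whose listed rows sum to 788099 to 807758 CPM per sample. Its coordinates are those of GRCm38. Of values up to 20 reads, 75.5% to 76.5% were whole reads (tolerance 0.05 read), so depths are estimates, whole reads were not recovered, and the count tests planned for that case were not run.

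The limma package 3.58.1 (R 4.3.3, lmFit and eBayes with trend) was run on log2(CPM + 1) of the 13850 rows whose mean reached 1 per 1e6 of the summed column, and p-values were adjusted over all of them. The strict limits follow the methods of the study. The fit was also run on simulated data, and no outcome of that run is reported here. All 8 members passed the filter, so the exact permutation test planned for others was not needed, and no symbol occurred more than once, so taking the highest row per symbol changes nothing. Alternatives were other pseudocounts, filters and normalizations, eBayes without trend, arrayWeights, a replicate block, other limits, and each sample left out in turn.

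Named genes are the members, the strict calls and the highest and lowest gene of each list, the 3 genes most like Socs1, Vmp1 and Mir21a. Stat2, Stat3, Ifngr2, Ifnar1, Ifnar2, Il6st, Gm17040, Gm17041, Cd4, Cd5, Cd8a, Prf1, Gzma, Clec9a, Cd209a, Lyz2, Fcgr1, Adgre1, Csf1r and Ly6g were added after their values were seen. A few list genes that this rule would name are not reported here. The members and lists were chosen with earlier results of these data known. Seed matches were counted in the longest 3′ UTR of GENCODE M21, and motifs in RefSeq promoter windows, on both strands. The length alternative, the rescaled marker sums and the motifs other than TTCNNNGAA were chosen after seeing the data. Figures were drawn with matplotlib 3.10.9.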

Additional observations from a re-analysis of the deposited data

Results flagged for a closer look

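Of 106 groups of 4 samples examined (the named genes in each genotype), 4 held a sample far from the other 3, by Dixon's test at its 95% limit. Chance alone gives about 1 in 20, and no SOCS family gene was among them. Il4ra was at 685.7 CPM in miR-21 null replicate 4, and the nearest sample was at 820.1 CPM. Il12rb1 was at 21.23 CPM in WT replicate 3, with the nearest at 14.34 CPM. Lifr was at 102.2 CPM in WT replicate 2, with the nearest at 67.87 CPM. Psmb9 was at 77.5 CPM in WT replicate 4, with the nearest at 54.29 CPM.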

How the results depend on the processing

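Socs1 passed the strict rule under all 17 alternatives, with log2 fold changes from 1.25 (pseudocount 10) to 2.32 and adjusted p from 1.01e-05 to 0.00048 in limma. Socs3 passed the loose rule under all 17 (0.39 to 0.54, adjusted p of 0.000812 to 0.0119) and the strict rule under none. Cish and Socs6 passed the loose rule under 10 of 17 each, Socs7 under 4, Socs5 under 2 and Socs4 under 1, and Socs2 under 0 of the 16 that tested it (adjusted p of 0.0758 to 0.456). No member changed sign. With an adjusted p at or under 0.05 and no fold limit, 4 members were called in place of 1, and leaving out a sample gave 2 to 4, with 2 without WT replicate 1 or WT replicate 2. Over all rows, the strict rule called 986, against 452 with a pseudocount of 10, 515 with no filter and 685 to 1001 with a sample left out. The loose rule, which relaxes the limit on the adjusted p to 0.05 and also drops the fold limit, called 4982. The 986 calls were 400 higher and 586 lower, against 506 and 360 after the median of ratios and 491 and 337 after quantile normalization. Tyk2 turned to 0.050 with the median of ratios and to 0.0016 without WT replicate 3 (-0.098 to 0.0016 with a sample left out), Nedd8 to 0.045 and 0.023 with the median of ratios and quantile normalization, and Ciita to 0.080 without miR-21 null replicate 2 (-0.33 to 0.080 with a sample left out). The cause was not tested.

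Samples with the same replicate number in their descriptions had deviations that correlated at 0.0828, -0.111, -0.143 and 0.22, not all over 0.1, so these numbers were not taken as pairs. The titles of the miR-21 null samples number them differently, and by titles replicate 2 would go with WT replicate 3 (0.135) and replicate 3 with WT replicate 4 (0.0318), which was not fitted. With the replicate block, 1 member was called strictly and 3 loosely, Cish having an adjusted p of 0.0569 in limma, and 922 rows were called in all. Not every sample correlated best with its own number. Precision is limited by 4 samples per genotype and, for Socs2, by 19 to 50 reads per sample.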
